A study of Mus musculus with 5 samples.

Results

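The peaks described here lie around Gfap, Aqp4 and Slc1a3, which are genes of astrocytes, in mouse gliomas with and without Olig2. A peak is a stretch of DNA that chromatin immunoprecipitation followed by sequencing (ChIP-seq) found enriched. All peaks that overlap a window of 110 kb around Gfap, 120 kb around Aqp4 or 190 kb around Slc1a3 were taken from the 5 deposited lists, whatever their score, which gave 88 peaks of 258727 in all. The windows lie on the mm9 build, on chromosome 11 from 102700000 to 102810000 (Gfap, near 102.75 Mb), on chromosome 18 from 15500000 to 15620000 (Aqp4, near 15.55 Mb) and on chromosome 15 from 8530000 to 8720000 (Slc1a3, between 8.58 and 8.66 Mb). The Gfap window held 33 peaks, the Aqp4 window 14 and the Slc1a3 window 41.

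All tumours were PDGFB-induced gliomas on a mixed C57Bl/6;129Sv;CD-1 background, collected 25 days after virus injection, and both genotypes carried floxed P53 alleles. Olig2cKO tumours carried floxed Olig2 alleles (Olig2f/f) as well, and control tumours did not. H3K27ac and H3K4me3 were each mapped in 1 library of Olig2cKO tumours and 1 library of control tumours, and Olig2 in 1 library of control tumours. The age of the animals, the number of tumours in a library and the source of Cre are not given in the sources used here. With 1 library a group no difference between genotypes has a replicate check, and none is tested. Tumour tissue is a mixture, so a mark present in more cells and a mark that is stronger in each cell cannot be told apart.

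GFAP is an intermediate filament protein of astrocytes, AQP4 is the water channel of their endfeet, and SLC1A3 (also called GLAST) is a glutamate transporter of astrocytes and radial glia. Olig2 is a basic helix-loop-helix transcription factor of the oligodendrocyte lineage, and factors of this class bind the E-box CANNTG. H3K4me3, trimethylated lysine 4 of histone H3, marks mainly promoters, and H3K27ac, acetylated lysine 27, marks active promoters and enhancers. Broad H3K4me3 domains are known to cover promoters of genes that define a cell type.

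The promoters of Gfap and Slc1a3 are shown, and that of Aqp4 is not, because Aqp4 had no entry in the promoter table. They are the 250 bases before the RefSeq start on GRCm38.p6, another build than that of the peaks, at chr11:102897201-102897450 on the minus strand and chr15:8710808-8711057 on the minus strand. Where these bases lie on mm9 was not determined, so no peak is placed on them. Capitals mark the E-box CANNTG, which reads the same on both strands.
Gfap: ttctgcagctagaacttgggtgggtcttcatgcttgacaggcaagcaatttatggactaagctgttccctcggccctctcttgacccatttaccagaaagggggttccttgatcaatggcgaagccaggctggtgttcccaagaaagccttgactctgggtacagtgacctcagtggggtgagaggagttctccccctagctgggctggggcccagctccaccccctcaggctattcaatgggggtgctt
Slc1a3: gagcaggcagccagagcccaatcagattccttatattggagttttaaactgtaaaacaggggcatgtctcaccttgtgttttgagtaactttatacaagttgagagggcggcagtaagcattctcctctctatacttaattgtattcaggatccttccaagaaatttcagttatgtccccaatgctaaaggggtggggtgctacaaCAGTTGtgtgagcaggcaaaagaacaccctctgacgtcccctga

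The Slc1a3 stretch held 1 E-box, CAGTTG, which begins 44 bases before the start, and the Gfap stretch held 0. At least 1 CANNTG was found in 66.2% of the 32851 promoters of the same length. The particular E-boxes CAGCTG and CATATG, both of them forms of CANNTG, were in neither stretch and in 13.0% and 3.46% of all promoters. Of the 3 genes, 2 had an entry in the promoter table.

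Peaks are described by position, width and the score that the authors' peak caller gave. The lowest score in each list lay between 50 and 50.02. Scores are not scaled between libraries and serve here to rank a peak inside its own list. A partner is a peak of the same mark in the other genotype that overlaps by at least 1 bp. A peak without a partner is one for which the other list holds no overlapping peak, which does not show that the mark was absent. Over the whole lists 30.9% of Olig2cKO and 17.9% of control H3K27ac peaks had no partner, and 21.4% of Olig2cKO and 8.13% of control H3K4me3 peaks.

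**Figure D1:**
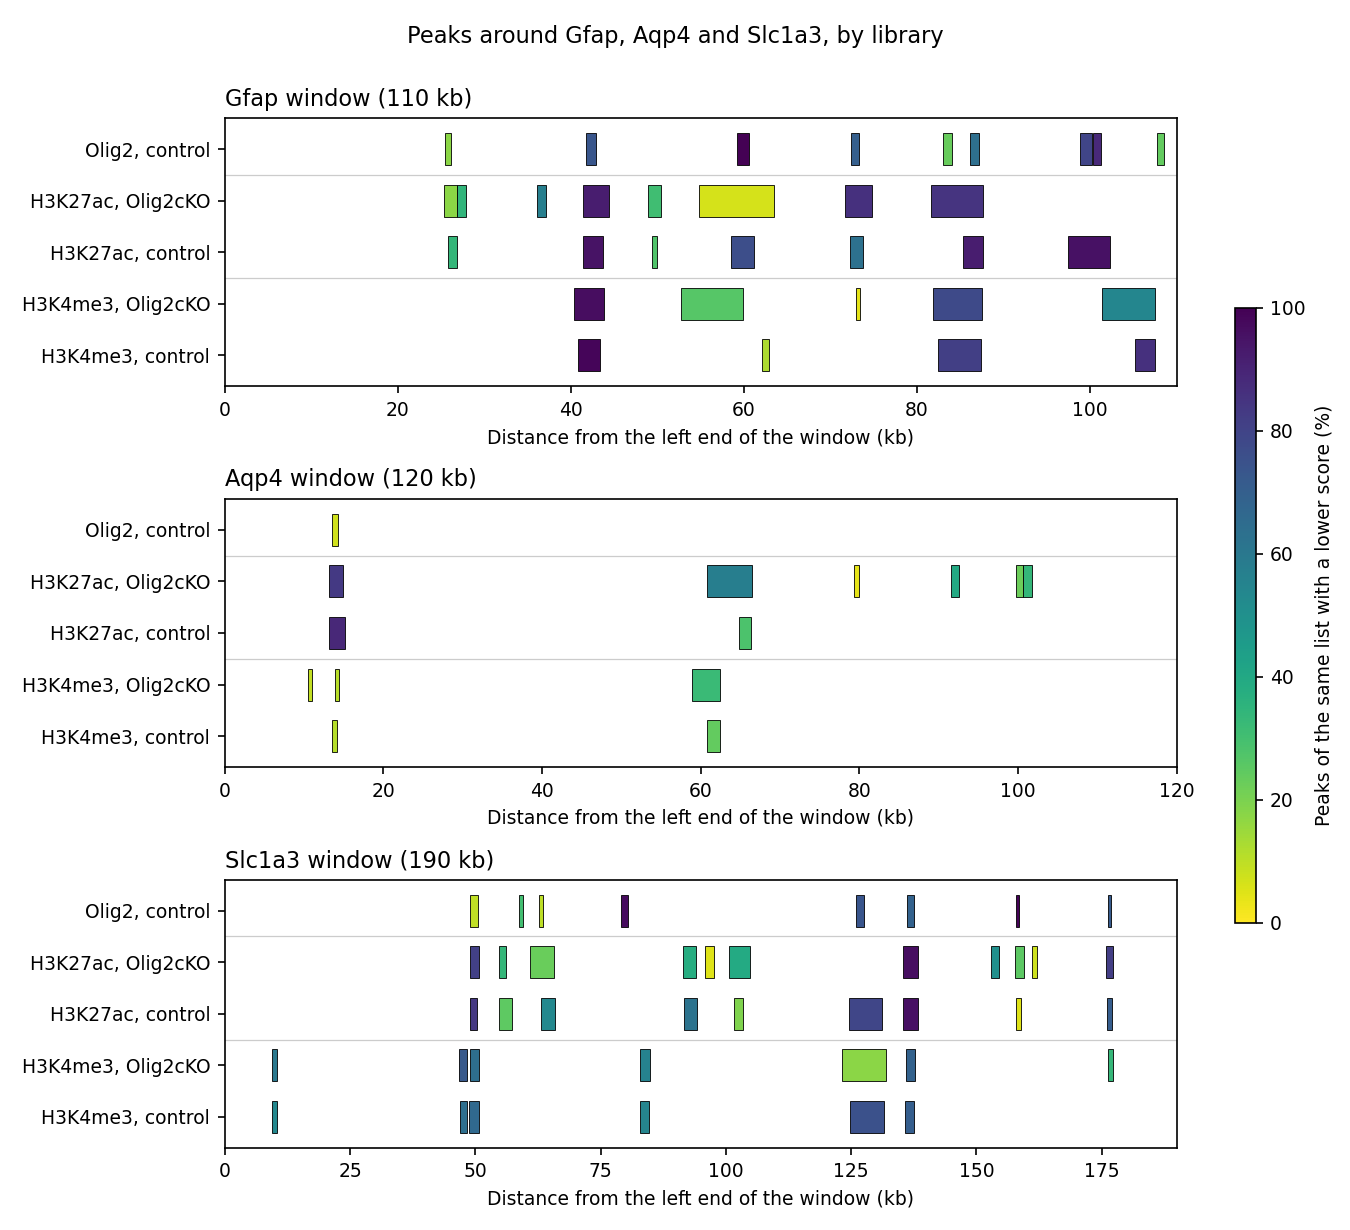
Each box is a peak of 1 library (rows) in the 3 windows (panels), drawn to scale along the distance from the left end of the window in kb and coloured by the percentage of peaks in the same list with a lower score. The Olig2cKO H3K27ac box of 8641 bp near the middle of the Gfap window is longer than the control box at the same place. So are those of both marks in the Aqp4 window (5671 and 3518 bp) and the H3K4me3 box of 8866 bp in the Slc1a3 window. The Olig2cKO H3K4me3 box of 7191 bp near the middle of the Gfap window overlaps no control H3K4me3 box.

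At Gfap both histone marks covered a wider stretch in Olig2cKO tumours. The Olig2cKO H3K27ac peak ran from 102754816 to 102763456 (8641 bp, score 57.5), while the control H3K27ac peak inside it ran from 102758446 to 102761173 (2728 bp, score 412). In 43120 H3K27ac pairs, 1 Olig2cKO and 1 control peak overlap only each other. Of these pairs, 6 (0.0139%) were wider in Olig2cKO tumours by 5913 bp or more, this pair included. The wide Olig2cKO peak was weak by score, with 6.53% of its list below it, against 76.2% of the control list below the control peak.

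H3K4me3 near Gfap was listed at different places in the 2 genotypes. The Olig2cKO peak ran from 102752690 to 102759880 (7191 bp, score 134) and had no partner. The control peak ran from 102762068 to 102762848 (781 bp, score 79.3), 2187 bp away, and had no partner either. Of the 10456 Olig2cKO H3K4me3 peaks without a partner, 2 were at least as wide as the one at Gfap, itself included. In its score decile, 1 of 10 classes of equal size in a list, 41.3% of Olig2cKO H3K4me3 peaks had no partner.

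The strongest Olig2 peak of the 3 windows lay at this place, from 102759193 to 102760575 (1383 bp, score 759), with 99.7% of the Olig2 list below it. It lay inside the control H3K27ac peak and overlapped the Olig2cKO H3K27ac and H3K4me3 peaks. Control H3K4me3 was not listed there. Olig2 was mapped in control tumours, so the binding and the wide Olig2cKO marks come from different genotypes.

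Several other genes lie near Gfap, and the window may hold some of them. In the GRCm38.p6 gene table the order is Eftud2, Ccdc103, Fam187a, Gfap, 2 long non-coding RNA genes, Kif18b and C1ql1. Eftud2 encodes a spliceosome GTPase, Kif18b a mitotic kinesin and C1ql1 a secreted C1q-like protein. Which peak belongs to which gene was not determined on mm9.

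The highest H3K4me3 scores of the Gfap window lay to the left of Gfap, at a place that both genotypes shared. The Olig2cKO H3K4me3 peak ran from 102740393 to 102743784 (3392 bp, score 2527), and the control peak from 102740780 to 102743401 (2622 bp, score 3100). H3K27ac there was 2934 bp wide (score 730) in Olig2cKO and 2300 bp wide (score 1041) in control tumours, and an Olig2 peak of score 147 lay under both marks. These histone peaks were among the upper 10% of their lists in both genotypes.

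To the right, 3 further places with Olig2 differed in extent. At the first, the Olig2cKO H3K27ac peak from 102771621 to 102774770 (3150 bp, score 532) contained the control peak from 102772299 to 102773716 (1418 bp, score 260), with an Olig2 peak of score 136. A small Olig2cKO H3K4me3 peak from 102772947 to 102773395 (449 bp, score 57.3) had no partner there, in the lowest score decile of its list, where 70.1% of peaks had none. At the second, H3K4me3 was 5702 bp wide (score 1004) in Olig2cKO and 4967 bp wide (score 1325) in control tumours.

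H3K27ac at that second place was 6012 bp wide (score 506) in Olig2cKO and 2311 bp wide (score 834) in control tumours. Of all H3K27ac pairs, 0.473% were wider in Olig2cKO tumours by at least as much. Of the 2 Olig2 peaks there, that of score 120 overlapped H3K27ac of both genotypes, and that of score 63.8 overlapped H3K27ac in Olig2cKO tumours but not in control tumours. The Olig2cKO H3K27ac peak contained the H3K4me3 peaks of both genotypes, and the control H3K27ac peak covered only their right part.

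The third place, at the right end of the window, went the other way for H3K27ac. A control H3K27ac peak from 102797433 to 102802238 (4806 bp, score 1069) had no partner, and the nearest Olig2cKO H3K27ac peak was 9778 bp away. In the highest score decile of the control list 0.601% of peaks had no partner, and 12 of the 10158 control H3K27ac peaks without a partner scored as high as this one or higher. Olig2 peaks of scores 173 and 235 lay under it. H3K4me3 next to it was 6179 bp wide (102801313 to 102807491, score 383) in Olig2cKO tumours and 2235 bp wide (102805222 to 102807456, score 1600) in control tumours.

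The Olig2cKO H3K4me3 peak thus reached into the region that control tumours had acetylated. A width larger in Olig2cKO than in control tumours by 3944 bp or more was found in 39 of 35250 H3K4me3 pairs (0.111%). The last Olig2 peak of the window, of score 64.3, overlapped none of the 4 histone lists, as did 17.1% of all Olig2 peaks. On the left side, 2 small Olig2cKO H3K27ac peaks had no partner. That from 102736070 to 102737143 (1074 bp, score 204) lay 4265 bp from the nearest control peak. That from 102726881 to 102727833 (953 bp, score 113) lay 11 bp from one. Beside it lay an H3K27ac pair with a weak Olig2 peak from 102725400 to 102726187 (788 bp, score 59.7), where the H3K27ac score was 74.3 in Olig2cKO and 115 in control tumours.

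Around Aqp4 the H3K27ac peaks were more numerous in Olig2cKO than in control tumours. Olig2cKO tumours had 6 H3K27ac and 3 H3K4me3 peaks in the window, and control tumours had 2 and 2. Over all adjoining windows of the same length the medians were 2 and 2 in the Olig2cKO lists, and 2 and 1 in the control lists. The whole H3K27ac lists held 69365 Olig2cKO and 56600 control peaks. The H3K27ac peak nearest the position given for Aqp4 ran from 15560790 to 15566460 (5671 bp, score 206) in Olig2cKO and from 15564815 to 15566340 (1526 bp, score 99.5) in control tumours. Of all H3K27ac pairs, 0.281% were wider in Olig2cKO tumours by the 4145 bp found here or more.

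H3K4me3 there ran from 15558912 to 15562429 (3518 bp, score 169) in Olig2cKO tumours and from 15560798 to 15562409 (1612 bp, score 125) in control tumours. The right ends differed by little and the Olig2cKO peak extended further left. A width larger in Olig2cKO than in control tumours by 1906 bp or more was found in 1.11% of all H3K4me3 pairs. In Olig2cKO tumours the H3K27ac and H3K4me3 peaks overlapped each other, and in control tumours they did not.

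Further right in the Aqp4 window, 4 Olig2cKO H3K27ac peaks between 15579312 and 15601812 had no partner, at 12971 to 34287 bp from the nearest control peak. They were 621 to 1185 bp wide with scores of 54.1 to 129. Of the 4 peaks, 2 nearly touched, at 15599701 to 15600613 and 15600628 to 15601812. With peaks within 1 kb merged, the window held 5 Olig2cKO and 2 control H3K27ac peaks. In the score deciles of the 4 unmerged peaks, 42.4 to 68.9% of the Olig2cKO list had no partner. None of the 4 overlapped Olig2 or H3K4me3.

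The only Olig2 peak of the Aqp4 window was weak and lay at its left end. It ran from 15513558 to 15514236 (679 bp, score 53.6), with 7.32% of the Olig2 list below it. H3K27ac was listed there in both genotypes, 1788 bp wide (score 475) in Olig2cKO and 2039 bp wide (score 714) in control tumours. H3K4me3 was listed as well, 541 bp wide (score 74.1) in Olig2cKO and 628 bp wide (score 75.7) in control tumours. Both pairs were narrower in Olig2cKO tumours. A further Olig2cKO H3K4me3 peak, 2527 bp from the control one, was 513 bp wide (score 69.95) and had no partner.

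Around Slc1a3 most H3K4me3 peaks were alike in both genotypes, and the widest one was an exception. It ran from 8653181 to 8662046 (8866 bp, score 96) in Olig2cKO tumours and from 8654711 to 8661513 (6803 bp, score 1008) in control tumours. Of all H3K4me3 pairs, 0.919% were wider in Olig2cKO tumours by the 2063 bp found here or more. Of the 377 pairs with a control peak within 25% of the width of this one, 4.24% were. The widest peak stood above 17.3% of the Olig2cKO list and 75.1% of the control list by score. In Olig2cKO tumours, 8 of the 48885 H3K4me3 peaks were at least as wide. The other 5 H3K4me3 pairs of the window differed by -12 to 101 bp.

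H3K27ac at this widest H3K4me3 peak was listed in control tumours and not in Olig2cKO tumours. The control peak ran from 8654592 to 8661252 (6661 bp, score 458), and the nearest Olig2cKO H3K27ac peak was 4086 bp away. An Olig2 peak of score 148 lay under it. In its score decile 4.72% of control H3K27ac peaks had no partner. The Olig2cKO H3K27ac list holds no peak wider than 8977 bp, and whether the peak caller left out wider domains is not stated. A wider Olig2cKO H3K27ac domain that was not listed and a missing one therefore cannot be told apart at this place.

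The neighbouring site from 8665339 to 8668433 (score 1009) in Olig2cKO and from 8665369 to 8668435 (score 1109) in control tumours was the highest H3K27ac peak of the window in both genotypes. It was 3095 bp wide in Olig2cKO and 3067 bp wide in control tumours. H3K4me3 there was 1855 bp wide in Olig2cKO and 1854 bp wide in control tumours, and an Olig2 peak of score 133 lay under both marks. The 2 genotypes thus differed little in extent here, a few kb from the widest H3K4me3 peak.

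Inside the stretch given for Slc1a3 the H3K27ac peaks without H3K4me3 varied in width. The peak from 8590922 to 8595759 was 4838 bp wide (score 84.4) in Olig2cKO and 2699 bp wide (score 196) in control tumours. The peak from 8630725 to 8634800 was 4076 bp wide (score 127) in Olig2cKO and 1734 bp wide (score 79.1) in control tumours. The peak from 8621467 to 8624070 differed little, at 2604 bp in Olig2cKO and 2532 bp in control tumours. The peak from 8584785 to 8586172 was 1388 bp wide in Olig2cKO and 2516 bp wide in control tumours, the largest difference in that direction among the 16 H3K27ac pairs of the 3 windows.

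Olig2cKO H3K27ac peaks without a partner lay at 8625846 to 8627565 (score 55.6), 8682890 to 8684597 (score 170) and 8691104 to 8692027 (score 59). They lay 1682 to 3304 bp from a control peak. At 8706246 to 8707187 an Olig2cKO H3K4me3 peak (942 bp, score 175) had no partner, and the nearest control peak was 38592 bp away. H3K27ac was listed there in both genotypes, with a score of 440 in Olig2cKO and 340 in control tumours, and an Olig2 peak of score 141.

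The 2 highest Olig2 peaks of the Slc1a3 window lay where the histone marks were weak or not listed. The peak from 8687961 to 8688611 (651 bp, score 679, 99.5% of the list below it) overlapped H3K27ac of score 89.9 in Olig2cKO and 55.8 in control tumours, and no H3K4me3. The peak from 8609116 to 8610451 (1336 bp, score 399, 96.9% of the list below it) overlapped none of the 4 histone lists. A weaker one from 8588720 to 8589512 (score 69.9) overlapped none either.

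The remaining Olig2 peaks of that window carried marks. The peak from 8579011 to 8580451 (score 54.7) overlapped both marks in both genotypes, and the peak from 8592707 to 8593441 (score 55) overlapped H3K27ac in both. H3K4me3 was listed in both genotypes without Olig2 at 3 places of the window, at 8539424 to 8540438, 8576820 to 8578251 and 8612960 to 8614844 in Olig2cKO tumours. H3K27ac was not listed at these 3 in either genotype.

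Over all 3 windows the shares of peaks without a partner were near those of the whole lists. For Olig2cKO H3K27ac 9 of 25 peaks (36.0%, exact 95% interval 17.97 to 57.5) had no partner, against 30.9% of the whole list, and for control H3K27ac 2 of 18 (11.1%, 1.38 to 34.7), against 17.9%. For Olig2cKO H3K4me3 4 of 15 peaks (26.7%, 7.79 to 55.1) had no partner, against 21.4%, and for control H3K4me3 1 of 12 (8.33%, 0.211 to 38.5), against 8.13%. The whole-list shares lie inside all 4 intervals, which cover counting error only. In the Aqp4 window 4 of 6 Olig2cKO and 0 of 2 control H3K27ac peaks had no partner. With peaks within 1 kb merged, 7 of 23 Olig2cKO H3K27ac peaks (30.4%) over the 3 windows had no partner.

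Of the 18 Olig2 peaks, 12 (66.7%, 41.0 to 86.7) overlapped H3K27ac in Olig2cKO and 14 (77.8%, 52.4 to 93.6) in control tumours, against 70.2% and 68.9% of all Olig2 peaks. H3K4me3 was overlapped by 10 (55.6%, 30.8 to 78.5) in Olig2cKO and 7 (38.9%, 17.3 to 64.3) in control tumours, against 58.1% and 55.6% of all. H3K27ac was listed in Olig2cKO tumours alone at 1 of the 18 Olig2 peaks and in control tumours alone at 3, against 7.42% and 6.11% of all Olig2 peaks. The 3 lay under the 2 control H3K27ac peaks without a partner. H3K4me3 was listed in Olig2cKO tumours alone at 3 of the 18 (2 in the Gfap window and 1 in the Slc1a3 window) and in control tumours alone at 0, against 6.43% and 3.84% of all. The exact 95% intervals of these shares, up to 41.4% for 3 of 18, hold the values of the whole list.

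Seen from the acetylated regions, Olig2 was listed at 11 of 25 Olig2cKO H3K27ac peaks (44.0%, 24.4 to 65.1) and at 13 of 18 control H3K27ac peaks (72.2%, 46.5 to 90.3), against 42.5% and 49.5% of the whole lists. H3K4me3 of the same genotype was listed at 9 of 25 Olig2cKO H3K27ac peaks (36.0%) and at 6 of 18 control H3K27ac peaks (33.3%, 13.3 to 59.0), against 49.7% and 50.2% of the whole lists. Of the 9 Olig2cKO H3K27ac peaks without a partner, 0 overlapped Olig2 or Olig2cKO H3K4me3 (exact 95% interval up to 33.6%), against 32.3% of the 21464 such peaks in the whole list, a share inside that interval. Both control H3K27ac peaks without a partner, 2 of 2 (15.8 to 100%), overlapped Olig2 or control H3K4me3, against 38.4% of the 10158 such peaks in the whole list.

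Widths leaned to Olig2cKO tumours for H3K27ac. Of the 16 H3K27ac pairs 14 were wider in Olig2cKO tumours, against 57% of all pairs. Their median difference was 722 bp, against 73 bp over all pairs. Peaks without a partner are in no pair. This leaves out the 2 control H3K27ac peaks of 4806 and 6661 bp, and 9 Olig2cKO H3K27ac peaks of 621 to 1720 bp. Of the 11 H3K4me3 pairs 9 were wider in Olig2cKO tumours, against 76.7% of all pairs, and the median difference was 101 bp, against 150 bp over all pairs. The middle H3K4me3 pair thus differed no more than in the whole list. In each window 1 H3K4me3 pair was among the 1.11% with the largest differences towards Olig2cKO, a limit that the Aqp4 pair itself sets. For H3K27ac, 2 pairs of the Gfap window had differences reached by 0.0139% and 0.473% of all pairs, and 1 of the Aqp4 window by 0.281%. The smallest such share in the Slc1a3 window was 2.23%. All 9 pairs of the Gfap window were wider in Olig2cKO tumours.

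**Figure D2:**
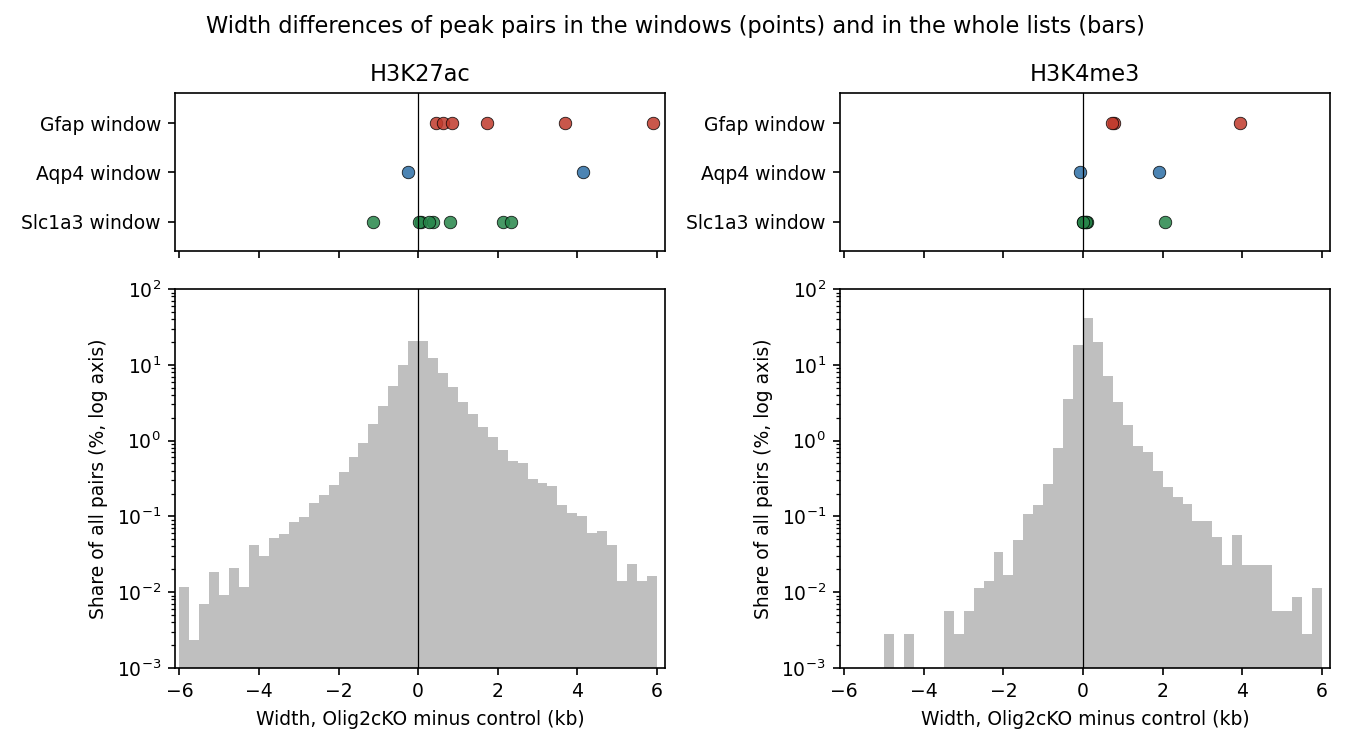
Points show the width difference, Olig2cKO minus control in kb, of each peak pair in a window (rows of the upper panels), and bars show the share of all pairs of that mark in each 250 bp class on a log axis, with values past 6 kb in the end bars. The largest differences of the windows, 5913 and 4145 bp for H3K27ac and 3944 bp for H3K4me3, lie far out on the right side of the whole lists.

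The length covered by peaks was larger in Olig2cKO tumours in every window when all listed peaks were counted. H3K27ac covered 25736 bp in Olig2cKO and 15241 bp in control tumours around Gfap. Around Aqp4 it covered 11144 bp in Olig2cKO and 3565 bp in control tumours. Around Slc1a3 it covered 25484 bp in Olig2cKO and 22884 bp in control tumours. The ratios of Olig2cKO over control were 1.69, 3.13 and 1.11, and the ratio over the whole lists was 1.21.

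H3K4me3 covered 22913 bp in Olig2cKO and 10605 bp in control tumours around Gfap. Around Aqp4 it covered 4572 bp in Olig2cKO and 2240 bp in control tumours. Around Slc1a3 it covered 17856 bp in Olig2cKO and 14630 bp in control tumours. The ratios were 2.16, 2.04 and 1.22, beside 1.23 over the whole lists. With all peaks counted the Slc1a3 window was thus near the whole lists for both marks, and the Gfap and Aqp4 windows were above them. For H3K27ac around Gfap this did not hold with lists of equal length, where the ratio was 1.02, beside 1.08 over the whole lists. In the upper 50% of each list by score the ratio over the 3 windows was 0.865 for H3K27ac and 0.954 for H3K4me3, the reverse direction. The widest Olig2cKO peaks have low scores and drop out there, while the control H3K27ac peak of 6661 bp around Slc1a3 stays in. By window the ratio was 0.971 for H3K27ac and 1.55 for H3K4me3 around Gfap, and 0.460 and 0.550 around Slc1a3. Around Aqp4 it was 3.66 for H3K27ac, and 0 H3K4me3 peaks remained in either genotype. Over the whole lists it was then 1.19 for H3K27ac and 1.24 for H3K4me3, computed after the data were seen.

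**Figure D3:**
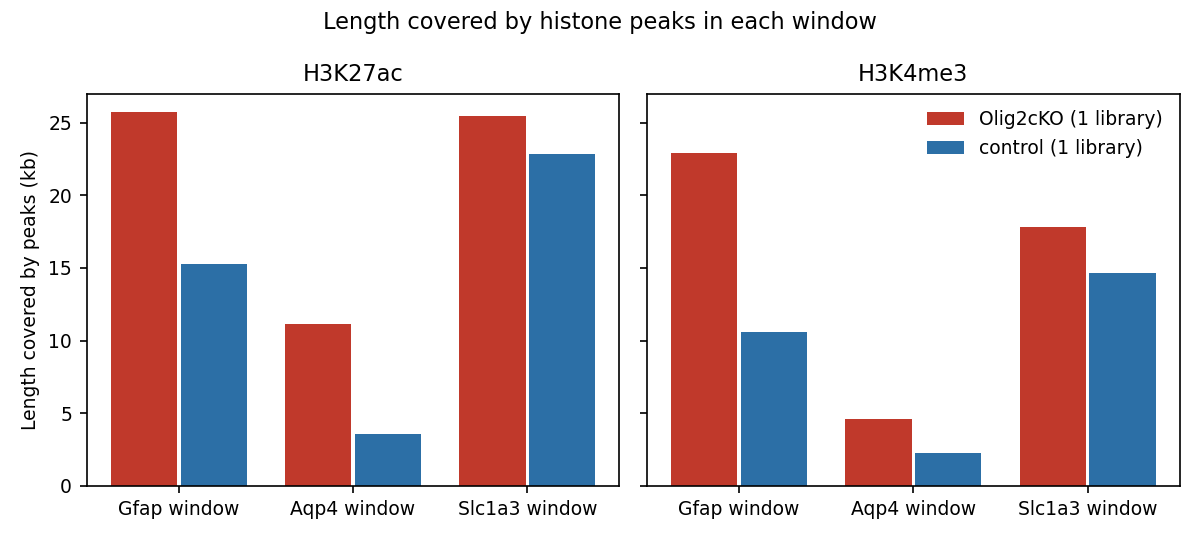
Bars show the length in kb that H3K27ac peaks (left) and H3K4me3 peaks (right) covered in each window, with Olig2cKO left of control and 1 library a bar. Olig2cKO bars are higher in all 6 pairs, by the most around Gfap for H3K4me3 (22913 against 10605 bp), with all listed peaks counted. In the upper 50% of each list by score the lengths summed over the 3 windows give ratios of 0.865 and 0.954. The ratios there stay above 1 for H3K4me3 around Gfap (1.55) and H3K27ac around Aqp4 (3.66).

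The windows were also set beside all adjoining windows of the same length on chromosomes 1 to 19 and X. The Gfap window held 9 Olig2 peaks, a number that 0.517% of 23970 windows reached, where the median was 1. Its H3K4me3 coverage was reached by 0.196% of windows in the Olig2cKO list and by 3.89% in the control list. Its H3K27ac coverage was reached by 1.16% of windows in the Olig2cKO list and by 5.73% in the control list.

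The Aqp4 window stood near the middle for Olig2 and for control H3K27ac coverage, and higher for Olig2cKO H3K27ac coverage. Its single Olig2 peak equalled the median of 1, and its H3K27ac coverage was reached by 18% of 21972 windows in the Olig2cKO list and by 41.0% in the control list. The Slc1a3 window held 8 Olig2 peaks, reached by 8.84% of 13874 windows. Its H3K4me3 coverage was reached by 5.05% of windows in the Olig2cKO list and by 5.6% in the control list. For its H3K27ac coverage the order was the other way, with 8% in the Olig2cKO list and 6.98% in the control list. Windows differ in gene content, which was not matched.

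Wide peaks need care in these lists. The widest H3K27ac peak was 8977 bp in the Olig2cKO list and 9063 bp in the control list. The widest H3K4me3 peak was 9285 bp in the Olig2cKO list and 9145 bp in the control list. Scores were low near that limit. Olig2cKO H3K4me3 peaks over 8 kb had a median score of 166, against 1570 at 3 to 4 kb, and Olig2cKO H3K27ac peaks 83.2 against 387. The wide Olig2cKO peaks at Gfap and Slc1a3, with scores of 57.5 and 96, belong to this range.

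In 3 of the 4 histone lists, peaks 6 to 7 kb wide with scores of 400 or more lacked partners more often than peaks 3 to 4 kb wide with such scores. Among Olig2cKO H3K27ac peaks, 11 of 114 (9.65%, 4.92 to 16.6) had no partner, against 43 of 2219 (1.94%, 1.41 to 2.6). Olig2cKO H3K4me3 was the exception, with 0 of 202, which allows up to 1.81%, against 4 of 2567 (0.156%). Over all scores the narrowest peaks lacked partners most often in both Olig2cKO lists and in the control H3K27ac list. Of H3K27ac peaks of up to 1 kb, 50.3% in the Olig2cKO list and 33.0% in the control list had none. In the control H3K4me3 list peaks over 8 kb lacked partners most often (39.3%). Among control H3K27ac peaks with scores of 400 or more, 13 of 167 peaks 6 to 7 kb wide (7.78%, 4.21 to 12.9) had no partner, against 31 of 2189 peaks 3 to 4 kb wide (1.42%, 0.964 to 2.00). The control peak at Slc1a3, 6661 bp wide, belongs to the wider class, and Olig2cKO H3K4me3 at the same place was 8866 bp wide. The control peak at the right end of the Gfap window, 4806 bp wide, belongs to a class in which 2.58% (1.66 to 3.81) had no partner. The part of peak width in these 2 calls was not tested.

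**Figure D4:**
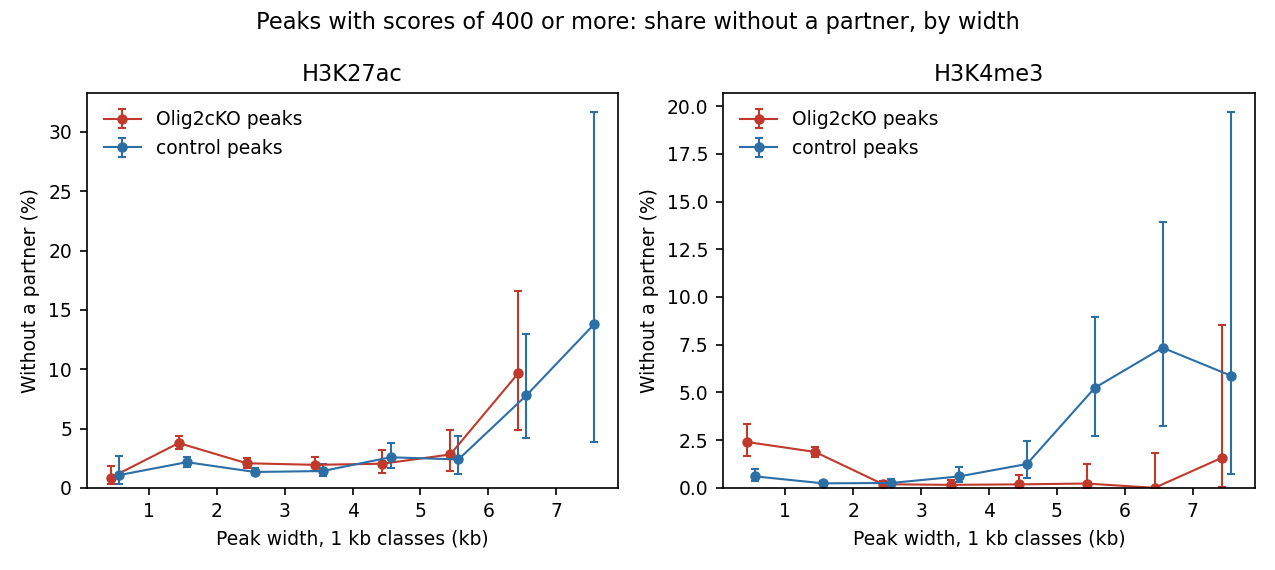
Points show the share of peaks without a partner in the other genotype, in percent with exact 95% intervals, by width class in kb, for peaks with scores of 400 or more and classes of 20 or more peaks. The shares at 3 to 4 kb and at 6 to 7 kb are 1.94% and 9.65% for Olig2cKO H3K27ac, 1.42% and 7.78% for control H3K27ac, 0.156% and 0% for Olig2cKO H3K4me3, and 0.598% and 7.34% for control H3K4me3.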

How the data were processed

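The authors deposited 1 peak list per library, in which every peak has a position and a score from their peak caller. CASAVA, Bowtie2 and MACS are named, for mm9, per the submitters' processing notes, and versions, settings, read depth and the use of an input are not given in the sources used here. The files do not name the scale of the scores. Positions count from 1.

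Peaks overlapping the 3 windows were taken in Python 3.11.15 (numpy 2.4.6, pandas 2.3.3). Partners overlap by at least 1 bp. Overlaps were checked on a random part of the real control H3K27ac peaks of chromosome 11 and on small made-up lists. They were also checked against bedtools 2.31.1, with identical counts in 3 of 3 comparisons. Width differences used pairs that overlap only each other. Exact binomial intervals at 95% came from scipy 1.17.1, and figures from matplotlib 3.10.9. No p-value was computed.

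In each window the highest peak of each list, every peak without a partner and every Olig2 peak were to be named. The width comparison, the width classes and the wide peaks named for them were chosen after the values were seen. The members, windows and lists were chosen with earlier results of these data known. Gene names and neighbours come from RefSeq tables of GRCm38.p6, used for names, order and promoter sequences. A list of other astrocyte genes was not analysed here, since gene positions on mm9 were not used. Not every allele that both genotypes share is reported here.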

Additional observations from a re-analysis of the deposited data

How the results depend on the processing

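Each list is 1 library of unknown depth, and scores are not scaled between libraries. No paired analysis was possible because each group has 1 library and no result comes from a test. With the upper 50% of each list by score, some ratios of covered length, Olig2cKO over control, fell below 1. They were 0.865 for H3K27ac and 0.954 for H3K4me3 over the 3 windows, and 0.971 for H3K27ac around Gfap. Around Slc1a3 they were 0.460 for H3K27ac and 0.550 for H3K4me3. The wide, low-scoring Olig2cKO peaks were left out there, and the control H3K27ac peak of 6661 bp around Slc1a3 stayed in. Their part in these ratios was not tested. In this upper 50%, 10 Olig2cKO H3K27ac, 8 Olig2cKO H3K4me3 and 11 Olig2 peaks remained in the windows. Of these upper peaks, 5 of 12 control (41.7%) and 3 of 10 Olig2cKO (30%) H3K27ac peaks had no partner. For H3K4me3, 0 of 8 Olig2cKO (0%) and 1 of 9 control (11.1%) peaks had none. Partners were sought in lists cut in the same way, so a peak whose partner scored low counted as without one. Shares over the whole cut lists were not computed. Olig2cKO H3K4me3 of the cut list was overlapped by 3 of 11 Olig2 peaks (27.3%). In that upper 50% the covered-length ratio was 1.55 for H3K4me3 around Gfap and 3.66 for H3K27ac around Aqp4. Over the whole lists it was 1.19 for H3K27ac and 1.24 for H3K4me3, computed after the data were seen. With lists of equal length the H3K27ac ratio fell to 1.02 around Gfap, against 1.69 with all peaks, as the widest Olig2cKO peak was left out, and it was 0.998 around Slc1a3, 2.95 around Aqp4 and, computed after the data were seen, 1.08 over the whole lists. The Aqp4 ratio was 4.95 for H3K27ac with windows narrower by 20 kb and 3.34 for H3K4me3 with peaks within 3 kb merged. Windows wider by 50 kb at each end held 25 Olig2cKO and 22 control H3K4me3 peaks and 28 Olig2 peaks. Each of 6 width differences, Olig2cKO minus control, was reached by 1.11% or fewer of all pairs of its mark. These kept their values when peaks within 1 kb or, added after the data were seen, within 3 kb were merged. The upper 50% of the lists held 2 of the 6 pairs, and lists of equal length held 5, with the same values. Counting peaks up to 1 kb apart as shared, an overlap of 50% of the shorter peak, and windows narrower by 20 kb left every share over the 3 windows inside its interval.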
